A study of Mus musculus with 18 samples.

Results

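The comparison is the change in ribosome loading of liver mRNAs between mice on a high-fat diet (HFD) and mice on normal chow (control). For each liver the ratio of RNA in ribosome-nascent chain complexes (RNC) to total mRNA was taken gene by gene, and the ratios of 3 HFD livers were set against those of 3 control livers. This used 12 of the 18 libraries of the series, 2 from each of 6 of its 9 livers. All the animals were wild type male C57BL/6 mice, put on their diet at 8 weeks of age for 8 weeks and sampled at 16 weeks of age. The other 3 livers came from mice given the high-fat diet plus lycopene and entered only an alternative fit. Both libraries of a liver carry the same animal code in the deposited file names, which is how they were joined. Only males of 1 strain and 1 time on the diet were measured.

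An mRNA that is being translated carries ribosomes, each holding a growing peptide chain. In RNC sequencing these complexes are stabilised with cycloheximide, which stalls elongating ribosomes, and are pelleted through a sucrose cushion before poly(A) RNA is sequenced. The ratio of a gene's share of RNC reads to its share of mRNA reads then describes how far its transcripts are found with ribosomes, relative to other transcripts of the same liver. Loading can be set for groups of mRNAs at once: growth signalling through mTOR acts on mRNAs that begin with a terminal oligopyrimidine tract, stress kinases acting on eIF2 favour mRNAs with upstream open reading frames, and iron acts on ferritin mRNAs through a stem-loop near their 5′ end. Since each library is scaled to its own total, a shift of all mRNAs together cannot be seen.

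The sequences behind these sets are shown because the comparison asks about mRNAs that share them. Genes of a single chromosome were not considered for display. The 5 ribosomal protein mRNAs shown are those with the highest RNC level among the ribosomal protein genes whose annotated start matched the tract, and the 3 mRNAs without a tract are the most abundant in RNC libraries among genes with a start sequence. These genes other than Rps6 and Alb were chosen after their values were seen. Each line gives the leading 20 bases of the transcript on its own strand, from RefSeq (GRCm38.p6), with the run of pyrimidines that starts with C in capitals. Where a gene had several annotated starts, the start with the longest such run was taken.
Rps6, chr4:86857348-86857367, minus strand: CTCTTTTTCgtgacgcctcc
Rpl35a, chr16:33056482-33056501, plus strand: CTCTTTCCgccatcttggcg
Rps18, chr17:33955646-33955665, minus strand: CTCTCTTCCacaggaggcct
Rpl28, chr7:4792965-4792984, plus strand: CTCTTTCCgtctccggccgc
Rpl15, chr14:18270967-18270986, minus strand: CTTCCTTTCCTCTggcggca
Mup10, chr4:60582136-60582155, minus strand: tggagtgtagccaggatcac
Alb, chr5:90460870-90460889, plus strand: atattagagcgagtctttct
Mup2, chr4:60139837-60139856, minus strand: gagtggagtgtagccacgat
The ferritin mRNAs carry the iron-responsive element, with the CAGTG part of its loop in capitals in the 24 bases given here from the GENCODE transcripts (GRCm38).
Fth1, chr19:9982734-9982757, plus strand: cctgcttcaaCAGTGcttgaacgg
Ftl1, chr7:45459782-45459805, minus strand: cttgcttcaaCAGTGtttgaacgg

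Of 24539 genes listed, 12541 had enough reads to be tested, and edgeR's quasi-likelihood test called none of them. At a Benjamini-Hochberg adjusted p under 0.05, 0 genes (percent called 0) had a higher and 0 (percent called 0) a lower ratio in HFD livers, and the smallest adjusted p was 1. At an unadjusted p under 0.05 there were 117 genes (0.933%), 79 with a higher ratio (0.63%) and 38 with a lower ratio (0.303%), against 627.05 for p-values spread evenly between 0 and 1. DESeq2 called 0 genes with 94 at an unadjusted p under 0.05, and limma-voom called 0 with 114. Without control replicate 1 there were 493 such genes and without HFD replicate 2 there were 405, again with 0 called. The change was below 0 for 6307 genes (50.3%), and its median over all tested genes was -0.0025 on the log2 scale. In 360 genes (2.87%) the ratios of all HFD livers lay above those of all control livers, and in 273 (2.18%) they lay below.

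The ratio of a gene varied widely between livers of 1 diet. Its SD within a diet had a median of 0.543 on the log2 scale, whereas the difference between the diet means had a median size of 0.248. For 82.0% of genes the difference was smaller than 1 SD. Restricting this to the 8486 genes with an average level of 5 CPM or more (reads per 1e6 of the library size adjusted by TMM, edgeR's scaling factor) in both kinds of library gave 0.459 and 0.197, and 84.4%. The SD describes single livers, whereas the difference is between means of 3 livers, which averaging makes smaller. A difference below the SD is thus partly set by the measures and cannot show whether diet had an effect. The standard error of a gene's change had a median of 0.438, so a change of that size in a typical gene was not detectable with 3 livers per diet. This is not a detection limit, since far larger changes, given below for single genes, were not called either. A p above the threshold therefore does not show that loading was alike on both diets.

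Livers differed in how widely their ratios spread, and the wide and narrow livers were found on both diets. The SD of the ratio over genes was 0.778, 1.6 and 1.09 in control replicates 1, 2 and 3, and 1.21, 1.31 and 0.764 in HFD replicates 1, 2 and 3. In control replicate 2 the ratio departed by more than 2-fold from equality in 55.5% of genes, and in HFD replicate 2 in 41.6%. In control replicate 1 and HFD replicate 3 that share was 14.1% each. The plot of ratios by liver shows the medians close to 0 in all 6, which follows from the TMM scaling, and boxes of unequal height. The TMM factors of control replicate 2 were 1.51 in mRNA and 0.737 in RNC. Those of control replicate 1 were closer to each other, at 1.11 and 0.821.

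**Figure D1:**
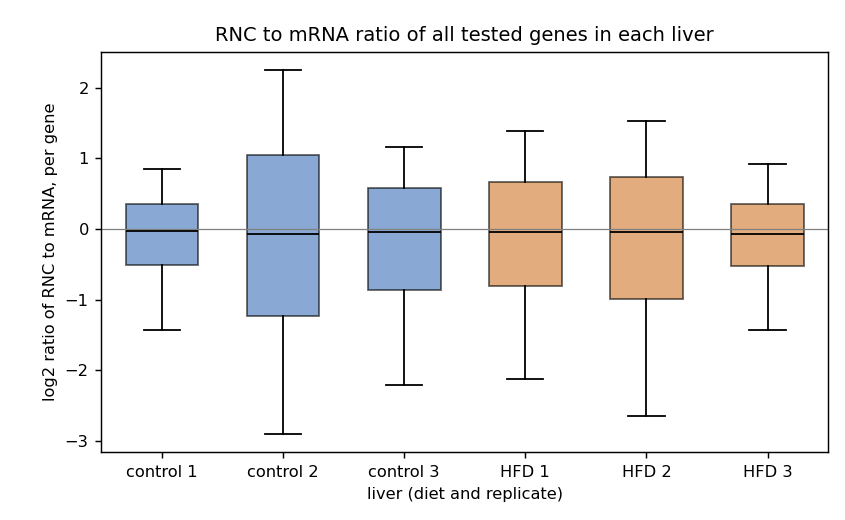
Log2 ratio of RNC to mRNA of the 12541 tested genes in each of 6 livers (control blue, HFD orange). Boxes span the quartiles with the median as a line and whiskers leave out the lowest and highest 5% of genes; control replicate 2 has the tallest box and control replicate 1 and HFD replicate 3 the shortest.

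Measures of the libraries also differed between livers. Of the reads behind the authors' RPKM values, the share not assigned to a listed gene in the mRNA libraries was 4.39%, 23.0% and 4.83% in control and 8.18%, 19.7% and 1.40% in HFD livers, highest in both replicates numbered 2. In the RNC libraries it was 6.31%, 1.85% and 0.765% in control and 13.8%, 1.22% and 0.841% in HFD livers, highest in both replicates numbered 1. Rn45s, the precursor of ribosomal RNA, which is not made by the polymerase that makes mRNA, had log2 ratios of -1.32, -4.73 and -3.06 in control and -0.69, -5.51 and -1.35 in HFD livers, lowest in both replicates numbered 2 and highest in HFD replicate 1, where the SD of the ratios was 1.21. Across the 8486 genes the pattern of ratios was most alike between control replicate 2 and HFD replicate 2 (r = 0.917, a description over genes of 2 livers). Pairs of livers on the same diet gave r from 0.728 to 0.891 and pairs on different diets 0.684 to 0.917. The labels name no batch, and the part of RNA composition or library making in the results was not tested. Listed reads ranged from 5535100 to 12742436 over the 12 libraries, where 3 reads stand for 0.230 to 0.717 CPM on the TMM-adjusted scale used for all levels here.

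Short transcripts had higher ratios than long ones in every liver. With the tested genes split into 5 equal classes by the length of the longest transcript, the class of 174 to 1562 bases had median log2 ratios of 0.31, 1.22 and 0.60 in control and 0.69, 0.66 and 0.34 in HFD livers. The class of 4626 to 83437 bases had -0.29, -0.81 and -0.62 in control and -0.46, -0.56 and -0.32 in HFD livers. The slope was steepest in control replicate 2 and shallowest in control replicate 1 and HFD replicate 3. The change between the diets followed this order, with medians of -0.11, -0.073, 0.0094, 0.050 and 0.12 from the shortest to the longest class. In the shortest class only control replicate 2 lay above the HFD livers, and the other control livers lay below or among them. In the longest class control replicate 1 lay above all HFD livers and the other control livers below them. Whether this order holds with a liver left out was not tested. An offset for the length trend of each library, added after the data were seen, again left 0 genes called. It also brought several list medians closer to 0: the large ribosomal subunit moved from -0.10 to 0.0037, the small subunit from -0.14 to -0.036, the proteasome from -0.15 to -0.036, the mitochondrial ribosome from -0.18 to -0.089, the respiratory chain from -0.13 to -0.035 and plasma proteins from -0.11 to -0.037.

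**Figure D2:**
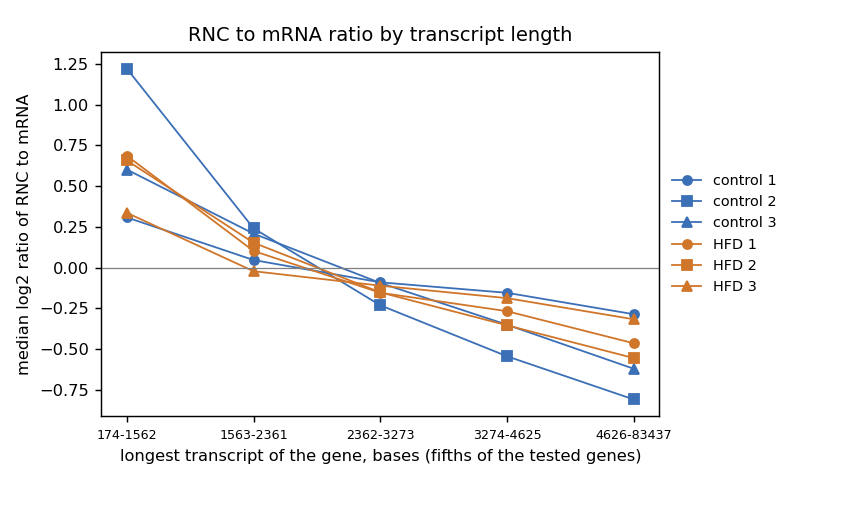
Median log2 ratio of RNC to mRNA in 5 classes of genes by the length of the longest transcript in bases, 1 line per liver (control blue, HFD orange). All 6 lines fall from left to right; control replicate 2 runs from 1.22 to -0.81 and lies outside the others at both ends.

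By gene type, the 11763 protein-coding genes had a median change of -0.0065, the 350 long non-coding RNAs 0.13 and the 81 transcribed pseudogenes 0.26. Long non-coding RNAs had lower ratios than coding genes in every liver, with medians of -0.47, -0.89 and -0.96 in control and -0.76, -1.04 and -0.37 in HFD livers. The diet groups overlapped.

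mRNAs of the translation machinery carried high ratios in all livers and did not separate the diets. Here and below, the members of a list were measured in the same livers, so that 1 liver can move many of them together. Counts of members above or below 0 are thus descriptions, and members are not replicates of a diet. In the large ribosomal subunit (48 proteins, all tested) 0 were called, 12 had a change above 0 and 36 below, with a median of -0.10. The per-liver medians were 0.40, 1.89 and 0.73 in control and 1.09, 0.90 and 0.73 in HFD livers. In the small subunit (33 proteins) 0 were called, 10 had a change above and 23 below 0, with a median of -0.14. Leaving out control replicate 1 moved these medians to -0.42 and -0.50, and leaving out control replicate 2 turned them to 0.36 and 0.30. With no replicate block the large subunit was at 0.014 (20 below and 28 above 0) and the small subunit at -0.057. With the length offset the large subunit had 24 members on each side of 0. Rps6, a small subunit protein phosphorylated downstream of mTOR, was at 452, 127 and 316 CPM in control and 206, 211 and 352 CPM in HFD livers in mRNA libraries. In RNC libraries it was at 589.7, 628 and 595 CPM in control and 436, 479 and 528 CPM in HFD livers, and its log2 ratios were 0.39, 2.3 and 0.91 in control and 1.08, 1.18 and 0.59 in HFD livers. Control replicate 2 had the highest ratio and the lowest mRNA level, and the HFD livers lay between the control livers. Rplp0, a protein of the ribosomal stalk, had a change of -0.37 ± 0.49 (SE).

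Genes with and without the tract had median changes close to 0. A start with C and at least 5 pyrimidines in all was found in 823 of 32851 annotated mouse starts (2.51%) and in 14 of the 60 ribosomal protein genes tested that matched a start (23.3%). A gene counted as a match if any of its annotated starts had the tract. A match depends on the annotated base, so that a start annotated a few bases away from the one used is missed. Of the 81 ribosomal protein genes in the lists, 14 with the tract had a median change of -0.099 and 46 with another annotated start -0.12. Over all 9796 tested genes with a start sequence, 301 with the tract had a median change of -0.036 and 9495 without it -0.0076. Among the genes printed above, Rpl35a had log2 ratios of 0.61, 1.81 and 0.65 in control and 1.44, 0.76 and 1.24 in HFD livers. Rps18 had 0.37, 1.75 and 0.21 in control and 0.99, 0.45 and 1.05 in HFD livers. Rpl15 had 0.42, 2.06 and 0.79 in control and 1.17, 1.08 and 0.63 in HFD livers. In all 3 the highest ratio was that of control replicate 2 and the HFD values fell within the control range. Rpl28, with a tract of the same length as Rpl35a, had lower ratios of 0.13, 0.72 and 0.014 in control and 0.64, -0.30 and 0.063 in HFD livers. Of 17 other tested mRNAs known to carry a tract, 5 had a change above and 12 below 0 (median -0.18). Without control replicate 2 these were 12 above and 5 below, with a median of 0.22, and without HFD replicate 3 the median was -0.029.

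Factors that run translation had mostly small changes below 0. All 12 tested elongation and release factors had a change below 0 (0 called, median -0.30), against 50.3% of all genes. The per-liver medians were 0.44, 1.52 and 0.81 in control and 0.72, 1.04 and 0.24 in HFD livers, so that the groups overlapped, with control replicate 2 highest and HFD replicate 3 lowest. This median kept its sign under all 21 alternatives, from -0.57 without control replicate 1 to -0.061 without control replicate 2. Most of the alternatives refit the same libraries, so a sign shared by all of them, here and below, is no separate support. Eef1a1, which delivers aminoacyl-tRNA to the ribosome, had log2 ratios of 0.38, 2.19 and 0.87 in control and 0.95, 1.34 and 0.34 in HFD livers. Eef2, which moves the ribosome along the mRNA, had 0.073, 1.19 and 0.61 in control and 0.51, 0.68 and -0.49 in HFD livers. Of 42 initiation factors, 13 had a change above and 29 below 0 (median -0.13), and leaving out 1 liver gave medians from -0.40 without control replicate 1 to 0.11 without control replicate 2. Eif3g, a subunit of the eIF3 complex, was the only 1 of the 42 without overlap, at 0.17, 0.56 and 0.48 in control and 0.0064, -0.073 and -0.38 in HFD livers. Of all genes 2.18% were lower in HFD livers without overlap, so the count is near that share.

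Of the 22 cytosolic aminoacyl-tRNA synthetases, which charge tRNAs with amino acids, 19 had a change below 0 and 3 above (0 called, median -0.12). That sign was the same under all 21 alternatives, though without HFD replicate 3 the median was -0.033 with 12 below and 10 above 0, and without control replicate 2 it was -0.045. Iars, the isoleucyl-tRNA synthetase (chr13:49682130-49734267), was at 15.3, 14.1 and 12 CPM in control and 13.1, 13.7 and 28.4 CPM in HFD livers in mRNA. In RNC it was at 27.9, 27.1 and 38.9 CPM in control and 10.05, 23.8 and 25.9 CPM in HFD livers. The log2 ratios of 0.87, 0.94 and 1.69 in control and -0.38, 0.80 and -0.13 in HFD livers placed every HFD liver below every control liver, with HFD replicate 2 only just below control replicate 1. The change was -1.06 ± 0.41 (SE; edgeR adjusted p = 1).

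mRNAs under stress-linked control of loading gave no call. In the list of 25 tested genes of the integrated stress response and mRNAs with upstream open reading frames, 12 had a change above and 13 below 0, with a median of -0.037, whose sign differed between settings (from -0.13 without control replicate 1 to 0.12 without control replicate 2). Atf4, a transcription factor whose upstream open reading frames govern its translation, had ratios of -0.49, -0.27 and -0.33 in control and -0.33, -0.20 and 0.058 in HFD livers. HFD replicate 1 lay among the control values and the other HFD livers above them. Ddit3 (CHOP), a target of ATF4, had -0.67, -1.25 and -0.084 in control and 0.27, -1.38 and 0.32 in HFD livers, with more spread within HFD than between the diets. Chac1, a glutathione-degrading enzyme that ATF4 also induces, had HFD ratios above control in all livers (change 0.99 ± 0.66 SE, edgeR adjusted p = 1), on 9 to 31 reads per library.

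Among 35 endoplasmic reticulum chaperones and genes of the unfolded protein response, 34 had a change below 0 and 0 were called; the median was -0.34. These proteins fold secretory proteins, which hepatocytes make in bulk. The per-liver medians were 0.42, 1.59 and 0.96 in control and 0.84, 0.87 and 0.24 in HFD livers, with HFD replicate 3 lowest, control replicate 2 highest and the other livers between. Hspa5 (BiP), the main chaperone of the compartment, was at 376, 241 and 584 CPM in control and 358, 249.6 and 580.0 CPM in HFD livers in mRNA. RNC libraries held it at 614, 1125 and 1564 CPM in control and 640.3, 422 and 831 CPM in HFD livers. Its ratios of 0.71, 2.22 and 1.42 in control and 0.84, 0.76 and 0.52 in HFD livers fell into a narrow band in HFD livers and a wide one in control livers, whose replicate 1 lay inside the HFD band. Creld2, an induced chaperone-like protein, had 0.11, 2.41 and 1.4 in control and 0.72, 0.14 and 0.44 in HFD livers. The list's median was -0.65 without control replicate 1, 0.019 without control replicate 2 (17 below and 18 above 0), -0.17 without HFD replicate 3 (26 of 35 below 0) and -0.11 with both livers numbered 2 left out. Herpud1, which acts in degradation of misfolded proteins, was the only 1 of the 35 whose groups did not overlap. It was lower in HFD livers, as were 2.18% of all genes without overlap, so the count is near that share. Herpud1 was picked out after its values were seen.

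Related lists of protein targeting and quality control had the same sign. Of 33 genes of targeting and translocation into the endoplasmic reticulum, 28 had a change below 0 (median -0.25; with 1 liver left out from -0.55 without control replicate 1 to 0.091 without control replicate 2). Of 34 proteasome subunits, 30 had a change below 0 (median -0.15). The proteasome median was 0.15 without control replicate 2 and 0.032 without HFD replicate 3, and with the length offset 21 of 34 were below 0. Psmb9, an immunoproteasome subunit, had ratios of 1.1, 1.41 and 0.68 in control and 0.63, 0.66 and 0.19 in HFD livers. The 25 cytosolic heat shock proteins had 19 changes below 0 and a median of -0.17, which was below 0 under all 21 alternatives but came to -0.0075 without HFD replicate 3. Hsph1 (HSP110, chr5:149616843-149636498), a co-chaperone of HSP70, was at 11, 23.9 and 27 CPM in control and 27.1, 37.2 and 37.5 CPM in HFD livers in mRNA. Its RNC level was 18.2, 53.4 and 76.6 CPM in control and 40.2, 29.4 and 38.9 CPM in HFD livers. Each control liver had more Hsph1 in RNC than in mRNA, and of the HFD livers replicate 2 had less. With ratios of 0.73, 1.16 and 1.5 in control and 0.57, -0.34 and 0.050 in HFD livers the groups did not overlap, and the change was -1.05 ± 0.37 (SE; edgeR adjusted p = 1).

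Nuclear genes for mitochondrial proteins gave no call, with a direction that depended on the setting. Of 77 mitochondrial ribosomal proteins 62 had a change below 0 (median -0.18), and of 77 subunits of the respiratory chain and ATP synthase 57 did (median -0.13). The per-liver medians of the respiratory chain were 0.68, 2.29 and 0.95 in control and 1.4, 1.22 and 0.97 in HFD livers, the highest of any liver being control replicate 2. Without that liver the medians were 0.14 and 0.38, and without HFD replicate 3 they were -0.051 and 0.0017. With no replicate block the respiratory chain had 36 changes below and 41 above 0 (median 0.029), and with the length offset 41 below and 36 above. For mitochondrial ribosomal proteins the length offset left 48 below and 29 above 0.

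**Figure D3:**
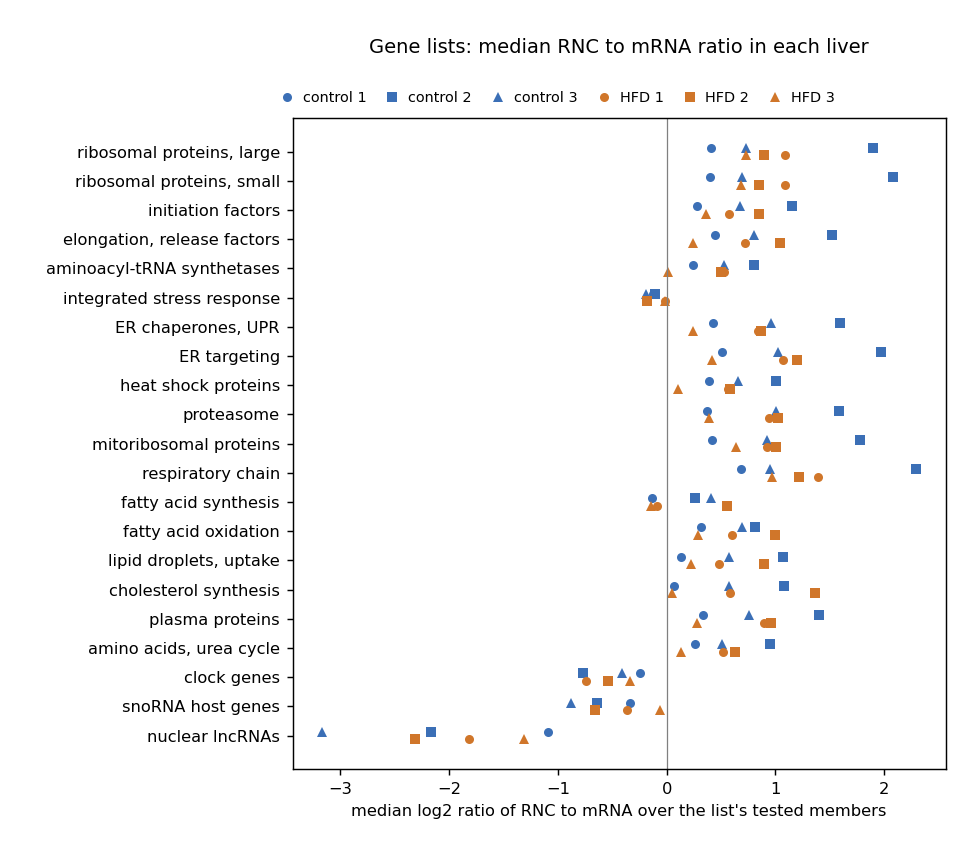
Median log2 ratio of RNC to mRNA over the tested members of 21 gene lists, 1 symbol per liver (control blue, HFD orange; circle, square and triangle for replicates 1, 2 and 3). In most lists with positive ratios the blue square, control replicate 2, lies farthest right and the other livers of both diets are mixed.

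Iron and selenium also act on translation. Ferritin mRNAs, which store iron once translated, hold the element printed above; its motif, CNNNNNCAGTG searched on the transcript strand, occurs in the leading 250 bases of 10.1% of 58797 protein-coding transcripts, so its presence alone says little. Fth1 had log2 ratios of 0.33, 2.15 and 0.57 in control and 0.77, 0.91 and 0.23 in HFD livers. Ftl1 had 0.25, 1.57 and 0.54 in control and 1.00, 0.57 and 0.14 in HFD livers. In both, control replicate 2 was highest and the HFD livers lay within or just below the range of the control livers. The list of 21 genes of iron handling had 8 changes above and 13 below 0 (median -0.13; with 1 liver left out from -0.33 without control replicate 1 to 0.17 without control replicate 2). Alas1, the rate-limiting enzyme of heme synthesis in liver, was at 78.4, 78.2 and 119 CPM in control and 343, 288 and 167 CPM in HFD livers in mRNA. Its ratios were -0.60, -0.58 and 0.39 in control and -0.60, -0.87 and -0.99 in HFD livers. More Alas1 mRNA was present in HFD livers, and its ratio was lower there without overlap, though HFD replicate 1 and control replicates 1 and 2 lay close together. Of 20 selenoproteins 9 had a change above and 11 below 0 (median -0.020; with 1 liver left out from -0.23 without control replicate 1 to 0.13 without HFD replicate 3). Gpx1, the abundant glutathione peroxidase, had ratios of 0.69, 3.21 and 1.47 in control and 0.94, 1.56 and 0.44 in HFD livers.

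Polyamine synthesis is under translational feedback. Of 12 genes 5 had a change above and 7 below 0 (median -0.13; with 1 liver left out from -0.20 without control replicate 1 to 0.098 without HFD replicate 3). Odc1, the rate-limiting enzyme, had ratios of 0.45, 1.86 and 1.33 in control and 0.076, 1.27 and -0.020 in HFD livers. Azin1, its antizyme inhibitor, had 0.38, 0.63 and 0.34 in control and 0.95, 0.89 and 0.59 in HFD livers. The 2 changes had opposite signs, at -0.77 ± 0.46 and 0.36 ± 0.33 (SE; edgeR adjusted p = 1 for both), and in each the groups overlapped.

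Genes of fat and sterol metabolism gave no call, also where mRNA levels lay apart between the diets. The 28 genes of fatty acid and triglyceride synthesis had 13 changes above and 15 below 0 (median -0.033; with 1 liver left out from -0.23 without HFD replicate 2 to 0.047 without control replicate 2). Scd1, which desaturates fatty acids, was at 5480.4, 1209 and 1791 CPM in control and 3056, 6567 and 11260.2 CPM in HFD livers in mRNA. RNC libraries held it at 7972, 5526 and 4230.3 CPM in control and 8882, 22129 and 18335 CPM in HFD livers. Its ratios of 0.54, 2.19 and 1.24 in control and 1.54, 1.75 and 0.70 in HFD livers overlapped fully, with a change of 0.012 ± 0.51 (SE) whose sign differed between settings. Fasn, fatty acid synthase, had -0.53, -1.07 and -0.39 in control and -0.072, 0.33 and -0.40 in HFD livers. HFD replicate 3 lay beside control replicate 3, and the other HFD livers were higher than all control livers. Gpam, which starts triglyceride assembly, had -0.60, -1.23 and -1.03 in control and -0.13, -0.29 and -0.45 in HFD livers. This put all HFD livers above all control livers (change 0.67 ± 0.34 SE, edgeR adjusted p = 1).

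The list of lipid droplets, lipases and fatty acid uptake had 13 changes above and 16 below 0 in 29 tested genes (median -0.049; with 1 liver left out from -0.25 without control replicate 1 to 0.15 without control replicate 2). Plin4, a coat protein of lipid droplets, was at 12.6, 14 and 9.74 CPM in control and 51.7, 49.9 and 11.3 CPM in HFD livers in mRNA and its ratio was far below 0 in all livers. Those ratios were -2.66, -3.28 and -3.18 in control and -2.36, -2.46 and -1.5 in HFD livers, higher in HFD without overlap (change 0.93 ± 0.42 SE, edgeR adjusted p = 1). Plin2, the main droplet coat protein of hepatocytes, had 0.58, 1.66 and 1.13 in control and 0.69, 2.04 and 0.19 in HFD livers, so that the highest and the lowest of all 6 values were HFD livers. Cd36, a fatty acid transporter, had 0.68, 1.41 and 0.55 in control and 1.03, 1.63 and 0.65 in HFD livers. Mfsd2a, a transporter of lysophosphatidylcholine, had mRNA at 2.29, 1.43 and 1.57 CPM in control and 121, 223 and 85.9 CPM in HFD livers. The RNC level was 1.16, 2.67 and 1.94 CPM in control and 69.8, 143 and 82.4 CPM in HFD livers. Its level was far higher in every HFD library of both kinds, and the ratios of -0.95, 0.88 and 0.30 in control and -0.79, -0.64 and -0.060 in HFD livers overlapped, with 9 to 23 RNC reads behind each control value. Apoa4, an apolipoprotein that follows dietary fat, likewise had more mRNA in every HFD liver but ratios of -0.35, 1.37 and 0.28 in control and 1.00, 0.75 and -0.80 in HFD livers.

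Of 45 genes of fatty acid oxidation and targets of PPAR-alpha, 17 had a change above and 28 below 0 (median -0.058; with 1 liver left out from -0.25 without control replicate 1 to 0.19 without control replicate 2). In 5 of the 45 the HFD ratios all lay above the control ratios, against 2.87% of all genes, and in none below. These were Abcd2, Cyp4a31, Ppara, Vnn1 and Pdk4, of which the last 3 were named after their values were seen. Abcd2, a peroxisomal transporter of very long chain fatty acids, was at 5.18, 2.86 and 2.46 CPM in control and 4.64, 15.3 and 14.8 CPM in HFD livers in mRNA. In RNC it was at 3.23, 3.94 and 2.4 CPM in control and 7.18, 47.2 and 21.4 CPM in HFD livers. Its ratios were -0.67, 0.46 and -0.034 in control and 0.62, 1.62 and 0.53 in HFD livers, and the change was 1.05 ± 0.45 (SE; edgeR adjusted p = 1). Cyp4a31, an omega-hydroxylase of fatty acids, had 0.20, -0.049 and -0.31 in control and 1.11, 1.24 and 0.28 in HFD livers. It belongs to a family of near-identical genes, so its counts are uncertain.

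Cholesterol synthesis and uptake was 1 of the few lists with most members above 0. Of 27 genes 22 had a change above and 5 below 0, 0 were called, and the median was 0.23. The per-liver medians were 0.071, 1.08 and 0.57 in control and 0.59, 1.37 and 0.051 in HFD livers, a similar range on both diets, with HFD replicate 2 highest. Without HFD replicate 2 the median was -0.077 (16 below and 11 above 0), and without control replicate 1 it was 0.019. Hmgcs1, which makes the precursor of mevalonate, was at 857, 564 and 325 CPM in control and 531, 389 and 676 CPM in HFD livers in mRNA. Its RNC level was 1087, 1143 and 326 CPM in control and 1419, 871 and 1267 CPM in HFD livers, and its ratios were 0.34, 1.02 and 0.0040 in control and 1.42, 1.16 and 0.91 in HFD livers.

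Secreted proteins and the metabolic enzymes of hepatocytes gave no call. Of 92 plasma proteins 63 had a change below 0 (median -0.11). That median was 0.16 without control replicate 2 and 0.050 without HFD replicate 3, and with no replicate block 50 of 92 were below 0. Alb, serum albumin, was at 57900.4, 12836 and 38574 CPM in control and 20395, 28883 and 58203 CPM in HFD livers in mRNA. RNC libraries held it at 88062, 88606 and 110641 CPM in control and 66912, 100391 and 108800.0 CPM in HFD livers, a narrower range. The ratios were 0.60, 2.79 and 1.52 in control and 1.71, 1.8 and 0.90 in HFD livers, highest in control replicate 2, which had the lowest mRNA level. Of 36 xenobiotic cytochrome P450 enzymes 24 had a change below 0 (median -0.11; with 1 liver left out from -0.28 without control replicate 1 to 0.016 without control replicate 2). Cyp3a11, a main drug-metabolising P450, had less mRNA in HFD livers than in control replicates 1 and 3, and ratios of 0.96, 1.98 and 1.03 in control and 1.6, 1.39 and 0.68 in HFD livers.

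Amino acid breakdown and the urea cycle held 2 of the genes nearest to a call. Of 55 genes 36 had a change below 0 (median -0.12; with 1 liver left out from -0.24 without control replicate 1 to 0.054 without control replicate 2), and 3 had HFD ratios all below control, against 2.18% of all genes. Got1, cytosolic aspartate aminotransferase (chr19:43499752-43524605), was at 65.2, 44.1 and 45 CPM in control and 128, 134 and 105 CPM in HFD livers in mRNA. The RNC level was 76.1, 83.4 and 77 CPM in control and 62.4, 122 and 87.9 CPM in HFD livers. The mRNA level was higher in all HFD livers while RNC levels overlapped. Its ratios of 0.22, 0.92 and 0.77 in control and -1.03, -0.13 and -0.26 in HFD livers were above 0 in all control and below 0 in all HFD livers, a change of -1.11 ± 0.39 (SE; edgeR adjusted p = 1). Cps1, carbamoyl-phosphate synthetase of the urea cycle (chr1:67122426-67231267), was at 855, 553 and 1248 CPM in control and 682, 1154 and 1026 CPM in HFD livers in mRNA. In RNC it was at 1387, 1847 and 1823 CPM in control and 619, 1101 and 1079 CPM in HFD livers, higher in each control liver than in any HFD liver. With ratios of 0.70, 1.74 and 0.55 in control and -0.14, -0.068 and 0.073 in HFD livers the change was -1.04 ± 0.43 (SE; edgeR adjusted p = 1). Ass1, argininosuccinate synthase, overlapped at 0.44, 2.09 and 0.92 in control and 0.66, 0.79 and -0.34 in HFD livers. The third member without overlap was Gpt, alanine aminotransferase, named after its values were seen.

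Insr, the insulin receptor, was at 125, 147 and 129.7 CPM in control and 123, 112 and 93.4 CPM in HFD livers in mRNA. Its ratios of -0.20, -0.72 and -0.75 in control and 0.19, -0.078 and 0.25 in HFD livers were all higher in HFD livers (change 0.68 ± 0.36 SE, edgeR adjusted p = 1). The 28 genes of glucose metabolism and insulin response had 14 changes on each side of 0. In the list of glutathione and NRF2 targets, 34 of 42 had a change below 0 (median -0.13; 0.16 without control replicate 2 and 0.077 without HFD replicate 3). Gclc, the catalytic subunit of the enzyme that starts glutathione synthesis, was an exception. Its mRNA level was nearly level at 393, 431 and 437 CPM in control and 421, 372 and 454 CPM in HFD livers. Its RNC level was 406, 394 and 414 CPM in control and 528, 632 and 604 CPM in HFD livers, higher in all HFD livers, and its ratios were 0.047, -0.13 and -0.079 in control and 0.33, 0.76 and 0.41 in HFD livers. The change was 0.55 ± 0.38 (SE; edgeR adjusted p = 1).

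Clock genes cycle over the day, and the labels do not give the hour of sampling. Of 19 tested clock genes 11 had a change above and 8 below 0 (median 0.085; with 1 liver left out from -0.066 without HFD replicate 3 to 0.15 without control replicate 1). Nr1d1 and Nr1d2 encode the paralogous repressors REV-ERB alpha and beta and differed in sign. Nr1d1 had ratios of -0.24, -0.55 and -0.83 in control and -1.37, -1.21 and -0.90 in HFD livers, lower in HFD. Nr1d2 had ratios of -0.86, -1.81 and -2.00 in control and -0.79, -1.03 and 0.00088 in HFD livers, mostly higher in HFD. Their changes were -0.61 ± 0.34 and 0.96 ± 0.42 (SE; edgeR adjusted p = 1 for both). Dbp, an output regulator of the clock, was at 0.798, 1.12 and 1.18 CPM in control and 8.41, 25.6 and 17.2 CPM in HFD livers in mRNA and had ratios of 0.79, 0.51 and 0.32 in control and -1.13, 0.36 and -0.18 in HFD livers, with 8 to 14 reads behind each control level.

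**Figure D4:**
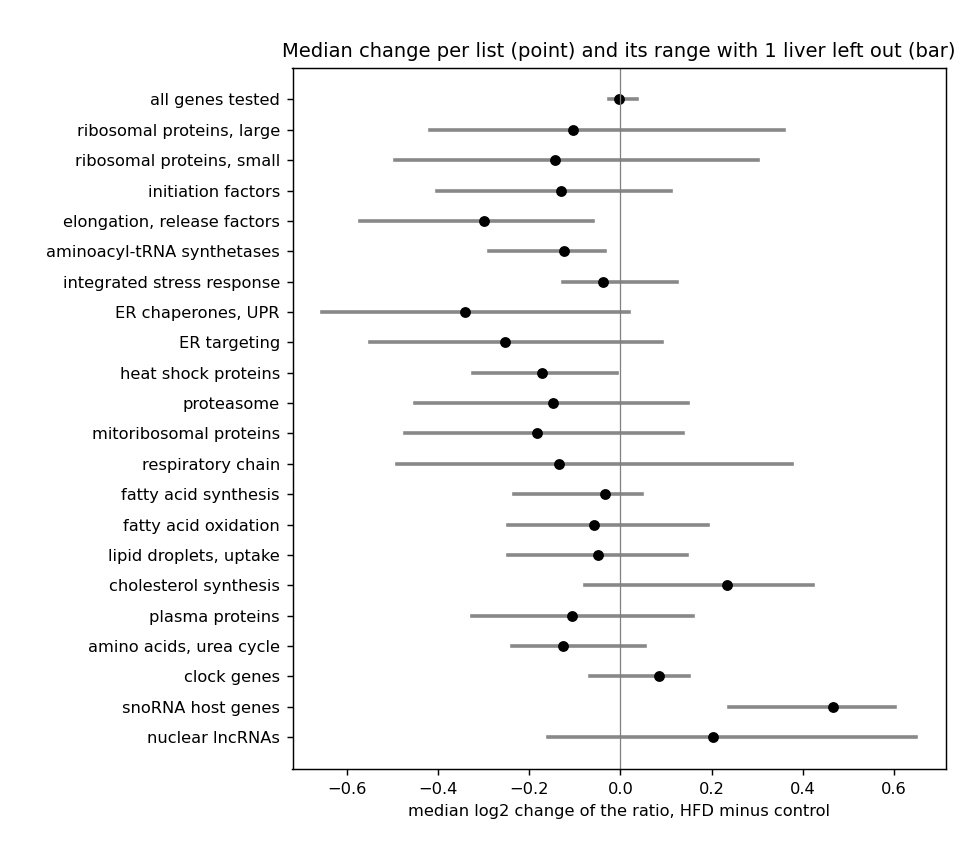
Median log2 change of the RNC to mRNA ratio, HFD minus control, over the tested members of 21 lists and of all tested genes (points), with the lowest and highest median when 1 of the 6 livers is left out (bars). Most bars cross 0; among the lists drawn, those of the elongation factors, aminoacyl-tRNA synthetases and heat shock proteins stay below 0 and that of the small nucleolar RNA host genes stays above it.

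Among lists with at least 5 tested members, host genes of small nucleolar RNAs had the median farthest from 0. Host genes carry small nucleolar RNAs in their introns, and the spliced RNAs of several are known to bind ribosomes. Of 20 tested host genes 17 had a change above 0 and 3 below (0 called, median 0.47), and the median was above 0 under all 21 alternatives. It ranged from 0.24 without HFD replicate 1 to 0.60 without HFD replicate 2. The highest value, 0.77, came with the filter at a mean of 10 CPM, under which 3 of the 20 were tested. The per-liver medians were -0.34, -0.64 and -0.88 in control and -0.36, -0.66 and -0.064 in HFD livers, so the groups overlapped, with HFD replicate 3 highest and control replicate 3 lowest. Gas5, a host gene known to carry a terminal oligopyrimidine tract, was at 39.3, 65.9 and 66.7 CPM in control and 47.3, 32.3 and 23.1 CPM in HFD livers in mRNA. RNC libraries held it at 18.1, 18.2 and 16.9 CPM in control and 27.7, 13.8 and 16.9 CPM in HFD livers, within a narrow band but for HFD replicate 1. Its ratios were -1.12, -1.85 and -1.98 in control and -0.77, -1.22 and -0.44 in HFD livers and the change 0.84 ± 0.37 (SE; edgeR adjusted p = 1). Snhg8 had 0.28, -0.20 and -0.94 in control and 0.54, -0.26 and 1.19 in HFD livers. Snhg20 had -2.4, -3.44 and -3.06 in control and -1.23, -3.43 and -2.19 in HFD livers. Of 23 small structured RNAs only 2 passed the filter. How the counting treated strand is not stated, so reads of overlapping genes cannot be told apart.

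Nuclear transcripts had low ratios in all livers. Malat1, which stays in the nucleus, was at 875, 827 and 1159 CPM in control and 1563, 1019 and 388 CPM in HFD livers in mRNA. The RNC level was 59.2, 41.1 and 51.1 CPM in control and 111, 25.9 and 41.5 CPM in HFD livers, and its ratios were -3.88, -4.33 and -4.5 in control and -3.81, -5.3 and -3.22 in HFD livers. The lowest value was HFD replicate 2 and the highest HFD replicate 3. The 14 tested nuclear and imprinted long non-coding RNAs had a median change of 0.20 (with 1 liver left out from -0.16 without HFD replicate 3 to 0.65 without control replicate 1) and per-liver medians of -1.09, -2.17 and -3.17 in control and -1.81, -2.32 and -1.31 in HFD livers. Dleu2, a host transcript of microRNAs (chr14:61602836-61682373), departed from this group. It was at 11, 17.4 and 10.7 CPM in control and 9.20, 6.00 and 4.83 CPM in HFD livers in mRNA. In RNC it was at 9.82, 12.7 and 9.03 CPM in control and 10.8, 11.6 and 10.8 CPM in HFD livers. The mRNA level was lower in all HFD livers while RNC levels were alike, and the ratios were -0.16, -0.45 and -0.25 in control and 0.23, 0.94 and 1.16 in HFD livers. The change was 1.08 ± 0.37 (SE; edgeR adjusted p = 1).

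With no gene called, the genes with the smallest p in each direction were taken among those at 5 CPM or more in both kinds of library. H2-Q1, a class I major histocompatibility gene (chr17:35320525-35328142), had the smallest p of the higher ones. It was at 13.2, 13.8 and 5.11 CPM in control and 17.4, 27.5 and 17.9 CPM in HFD livers in mRNA. Its RNC level was 10.1, 10.2 and 4.80 CPM in control and 36.8, 59.3 and 33.2 CPM in HFD livers. Every HFD liver had more in RNC than in mRNA, while every control liver had less. The ratios of -0.38, -0.43 and -0.091 in control and 1.08, 1.11 and 0.89 in HFD livers were close together within each diet, and the change was 1.34 ± 0.34 (SE; edgeR adjusted p = 1). The H2-Q genes are near-identical copies, among which reads may be split by the counting. Of these copies H2-Q9, picked out after its values were seen, lay the other way, with means of 0.27 ± 0.14 (SD, n = 3) in control and -0.37 ± 0.24 (SD, n = 3) in HFD livers. Values of this gene are therefore uncertain.

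Plekha1, an adaptor that binds membrane phosphoinositides (chr7:130860551-130913494), was at 18, 29.5 and 16.6 CPM in control and 20.9, 18 and 15.6 CPM in HFD livers in mRNA. RNC libraries held it at 9.82, 9.97 and 8.00 CPM in control and 20.3, 15.9 and 16.7 CPM in HFD livers, higher in all HFD livers. The ratios were -0.87, -1.56 and -1.05 in control and -0.041, -0.18 and 0.098 in HFD livers, with a change of 1.13 ± 0.34 (SE; edgeR adjusted p = 1). Igfbp3, which binds insulin-like growth factors in blood (chr11:7206086-7215498), was at 28, 15.4 and 19.3 CPM in control and 16.6, 19.5 and 21.4 CPM in HFD livers in mRNA. The RNC level was 18.1, 13.2 and 16.5 CPM in control and 45.4, 27.2 and 26.1 CPM in HFD livers. Control ratios were all below 0 and HFD ratios all above, at -0.63, -0.22 and -0.23 in control and 1.45, 0.48 and 0.29 in HFD livers, and HFD replicate 1 was well above the others. Sgms1, sphingomyelin synthase of the Golgi, had -0.20, -0.074 and -0.74 in control and 0.96, 0.66 and 0.42 in HFD livers. Gnaq, the alpha subunit of the Gq protein, had -0.91, -0.62 and -0.68 in control and 0.51, 0.16 and -0.20 in HFD livers. Trim30d, a member of a family of closely related TRIM genes, had -0.86, -1.52 and -1.68 in control and -0.095, -0.66 and -0.0016 in HFD livers. Fam204a overlapped between the diets. The changes of these 4 genes were 1.01, 0.89, 1.1 and 1.22, with standard errors of 0.38, 0.35, 0.38 and 0.47 (edgeR adjusted p = 1 for all 4).

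Etfbkmt, a mitochondrial methyltransferase that modifies the electron transfer flavoprotein (chr6:149141476-149151171), had the smallest p of the lower ones. It was at 22.3, 22.8 and 30.3 CPM in control and 60.6, 46.1 and 16.5 CPM in HFD livers in mRNA. In RNC it was at 11.9, 28.2 and 41 CPM in control and 20.8, 13.5 and 7.86 CPM in HFD livers. HFD livers all had far less in RNC than in mRNA, and so did control replicate 1, while the other control livers had more. The ratios were -0.91, 0.30 and 0.44 in control and -1.54, -1.77 and -1.07 in HFD livers and the change -1.44 ± 0.42 (SE; edgeR adjusted p = 1). Ddx54, an RNA helicase of the nucleolus, had 0.088, 0.18 and 0.48 in control and -0.94, -0.23 and -0.72 in HFD livers. Mllt1, a chromatin reader, had 0.076, 0.78 and 0.24 in control and -0.21, -0.66 and -0.74 in HFD livers. In both genes every control ratio was above 0 and every HFD ratio below. Snrpc, a protein of the U1 splicing particle, had 0.61, 2.45 and 0.90 in control and -0.40, 0.77 and -0.33 in HFD livers, with overlap. The long non-coding RNA Gm16551 had -1.15, 1.43 and 0.40 in control and -1.59, -2.32 and -1.46 in HFD livers, of which the HFD replicate 2 value rests on 9 RNC reads.

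**Figure D5:**
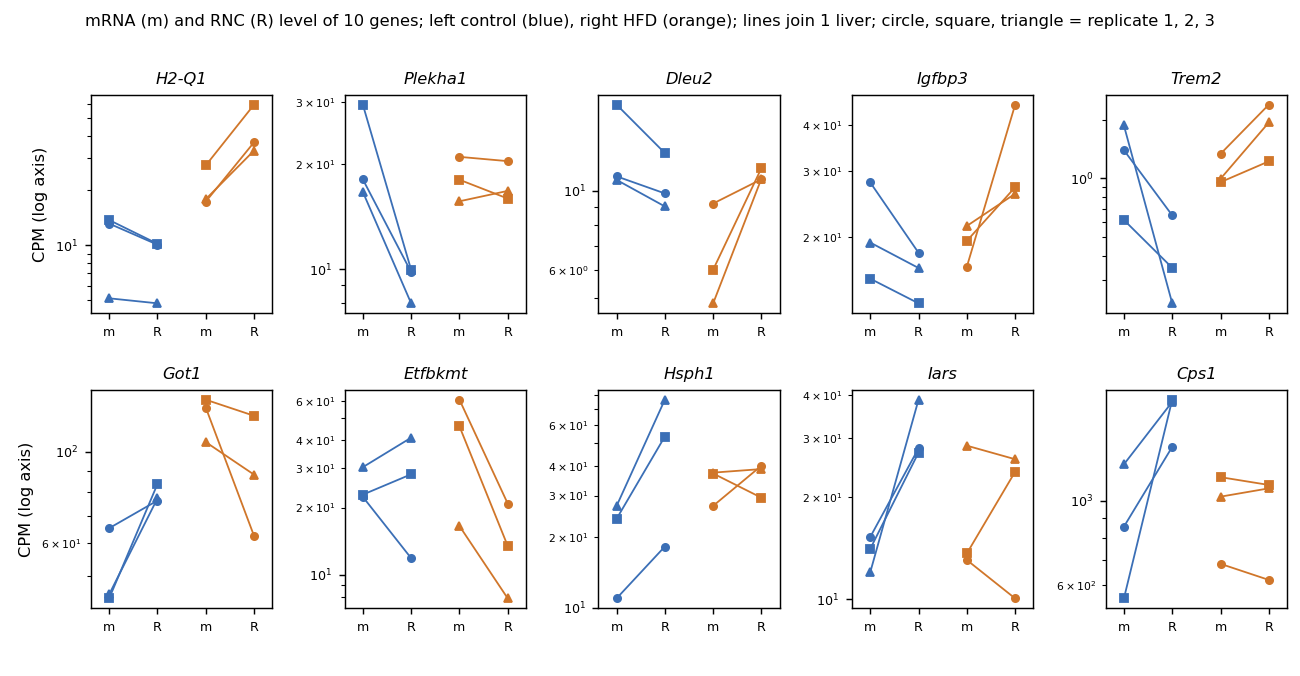
Level in CPM (log axis, own scale per panel) of 10 genes in the mRNA (m) and RNC (R) library of each liver, joined by a line; control livers are blue on the left and HFD livers orange on the right, with circle, square and triangle for replicates 1, 2 and 3. For H2-Q1, Dleu2 and Igfbp3 all control lines fall and all HFD lines climb, and for Got1 the reverse holds.

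Few genes had ratios on opposite sides of 0 on the 2 diets. Of the 8486 genes at 5 CPM or more, 33 had a ratio above 0 in all HFD livers and below 0 in all control livers, and 17 the reverse. The 33 include H2-Q1, Dleu2, Igfbp3 and Sgms1, and with them Sgk2 and Sgk3, kinases related to SGK1 that act downstream of insulin, and Cnot2 and Cnot6, subunits of the CCR4-NOT complex that shortens poly(A) tails. The 17 include Got1, Ddx54, Mllt1, H2-Q9 and Avpr1a, the vasopressin receptor of hepatocytes. The kinases, the CCR4-NOT subunits and Avpr1a were picked out after their values were seen.

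Cell type markers were read in the same way, since liver RNA is a mixture. In bulk RNA fewer cells of a type and less RNA per cell cannot be told apart. Hepatocyte markers, all 8 with reads in all 12 libraries, summed to 90599.7, 25826 and 63959.5 CPM in control and 39506, 48018 and 87109 CPM in HFD livers in mRNA. In RNC they summed to 131472, 133843 and 159229 CPM in control and 105272, 139877 and 148976 CPM in HFD livers. All 8 had a change below 0 (median -0.28; 0.080 without control replicate 2, with 4 on each side of 0). Of 17 striated muscle markers 2 passed the filter, and the sums of these 2 alone were 0.457 to 2.65 CPM. The other muscle markers had too few reads to be tested and are not in the sums. Myh1 had 0 reads in all 12 libraries.

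Of 20 markers of Kupffer cells and other macrophages 19 were tested, with 9 changes above and 10 below 0 (median -0.14). Without control replicate 2 the median was 0.25 with 17 of 19 above 0, without HFD replicate 3 it was 0.092, and with no replicate block -0.0010. They summed to 492, 313 and 551 CPM in control and 424, 784 and 612 CPM in HFD livers in mRNA. In RNC they summed to 566, 672 and 684 CPM in control and 689.9, 1188 and 684 CPM in HFD livers, highest in HFD replicate 2 in both. Trem2, a receptor of lipid-associated macrophages (chr17:48346401-48352276), was at 1.40, 0.612 and 1.87 CPM in control and 1.34, 0.956 and 0.996 CPM in HFD livers in mRNA. Its RNC level was 0.646, 0.348 and 0.229 CPM in control and 2.39, 1.22 and 1.94 CPM in HFD livers. The ratios of -1.05, -0.73 and -2.78 in control and 0.82, 0.34 and 0.93 in HFD livers did not overlap, with a change of 2.33 ± 0.84 (SE; edgeR adjusted p = 1). They rest on 2 to 5 RNC reads per control library and 10 to 19 per HFD library, and the part of macrophage number in them was not tested.

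Of 16 markers of sinusoidal endothelial cells 13 had a change below 0 (median -0.21), a sign kept under all 21 alternatives. With 1 liver left out it ranged from -0.42 without HFD replicate 1 to -0.13 without HFD replicate 2, and with both livers numbered 2 left out it was -0.051, with 9 of 16 below 0. Dnase1l3, a DNase secreted by these cells, had ratios of 0.71, 1.17 and 0.19 in control and 0.49, -0.40 and -0.59 in HFD livers. Flt1, a VEGF receptor, had no read in the RNC library of HFD replicate 1 and 9 and 20 reads in the other 2, against 11 to 17 in control livers. These markers summed to 357, 336 and 440.4 CPM in control and 391, 454 and 468 CPM in HFD livers in mRNA and to 465, 347 and 373 CPM in control and 492, 329 and 399 CPM in HFD livers in RNC libraries. Markers of stellate cells and fibroblasts had 8 of 14 changes above 0 (median 0.16). That median was 0.0082 without HFD replicate 1, with 7 on each side of 0, and 0.027 with limma on the log2 ratios. Erythroid markers, of which 5 of 7 were tested, had per-liver median ratios of 1.54, 1.63 and 1.51 in control and 1.55, 0.96 and 2.03 in HFD livers and a median change of 0.0015. Of the markers of cholangiocytes 5 of 8, of lymphocytes 5 of 17 and of neutrophils 3 of 9 were tested, with median changes of 0.025, 0.065 and 0.31, each of which had the other sign without HFD replicate 1. Immediate early genes (23 tested, 11 above and 12 below 0), interferon response genes (18 and 20 of 38), genes of bile acid synthesis and transport (10 and 10 of 20) and major urinary proteins (6 and 13 of 19) gave 0 calls as well.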

How the data were processed

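Per the labels' protocols, total RNA and RNC RNA of each liver were extracted with TRIzol and poly(A) libraries were made with a VAHTS mRNA-seq kit. Base calling used bcl2fastq and the genome build was mm10, per the submitters' processing notes; per the labels, mapping was to RefSeq RNA. No source used here gives the aligner or strand use. Per the file headers, the authors deposited a read count, an RPKM value, the longest transcript length and RefSeq identifiers per gene. The deposited counts are whole numbers and entered every test. The deposited RPKM values served only to derive the library total behind them.

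The 12 count columns were fitted in edgeR 4.0.16 (R 4.3.3). filterByExpr selected genes (minimum count 10, minimum total count 15), and TMM scaled the libraries. The robust quasi-likelihood model had a term for each liver, library kind, and kind by diet, which is the change reported, with 4 residual degrees of freedom. p-values are two-sided and Benjamini-Hochberg adjusted over 12541 genes. Log2 ratios per liver are differences of TMM-scaled log2 CPM with a prior count of 0.5 reads. limma 3.58.1 and DESeq2 1.42.0 gave alternatives, which the closing section lists. The script was tested on simulated data. The labels mention no molecular identifiers, so a CPM given for 3 reads covers counting error alone. With 3 livers against 3, an exact permutation test of 1 gene cannot go below p = 0.1.

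Of the 12541 symbols, 12203 matched RefSeq GRCm38.p6, which gave coordinates and gene types. The comparison, gene lists, naming rule and alternatives were chosen with earlier results of these data known. Genes named are the 10 largest called rises and falls, of which there were none; since fewer than 5 were called in a direction, the 8 with the smallest p among genes of at least 5 CPM in both kinds, the 3 members with the smallest p of each list, and a set of chosen genes. The text gives part of them, and not every chosen gene is reported here.

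The pairing of libraries rests on the animal code in the file names. Residuals of the mRNA and RNC libraries of the same liver had r of -0.037 to 0.52 over genes, with 3 of 6 pairs over 0.1. Libraries of different livers of a diet had -0.53 to 0.39, with 3 of 12 over 0.1. The mRNA library of control replicate 2 had r of 0.127 with the RNC library of control replicate 1 and -0.037 with its own. For HFD replicate 2 these were 0.117 with HFD replicate 1 and 0.064 with its own. Control replicate 1 and HFD replicate 3 were also slightly closer to another liver. In control replicate 3 and HFD replicate 1 the own pair was highest, at 0.225 and 0.521. The residuals thus do not settle the pairing. Replicate numbers are not stated to link livers of different diets.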

Additional observations from a re-analysis of the deposited data

How the results depend on the processing

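Under all 21 alternatives, most of which refit the same libraries, 0 genes were called in either direction. Genes at an unadjusted p under 0.05 numbered 117 as reported, 10 with all 18 libraries and the replicate block, and 83 to 493 when 1 liver was left out. The smallest adjusted p was 0.284 without control replicate 1 and 0.315 with both livers numbered 2 left out. With no replicate block, that is without the pairing of a liver's libraries, 0 genes were called and 107 had an unadjusted p under 0.05. Limma on the log2 ratios gave 306 such genes, and 322 with a prior count of 2 reads. A filter at a mean of 10 CPM gave 39 such genes of 6086 tested, and no filter 188 of 17268. Plain library size gave 90 such genes and a median change of 0.031. TMM within each library kind gave 116, RLE size factors 112, and the fit with the robust option off 118. The median change of all genes stayed between -0.040 and 0.039. Of the alternatives, 3 were chosen after seeing the data: a length offset, the authors' library total, and leaving out both livers numbered 2.

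Of 1432 values of the genes named under alternatives, 1376 had the direction reported and 56 the opposite, none with a call; the cause was not tested. When 1 liver was left out, the log2 change ranged from -0.41 to 0.44 for Scd1, -0.040 to 0.49 for Cd36, -0.69 to 0.24 for Plin2, -0.52 to 0.45 for Apoa4, -0.30 to 0.23 for Cyp3a11, -0.75 to 0.18 for Fth1, -0.51 to 0.17 for Ftl1, -0.68 to 0.25 for Eef1a1, -0.68 to 0.30 for Rps6, -0.76 to 0.071 for Rplp0, -0.37 to 0.28 for Tpt1, -0.70 to 0.41 for Alb, -0.31 to 0.72 for Malat1, -0.50 to 0.094 for Elovl6, -0.39 to 2.01 for Rn45s, -0.11 to 0.51 for Rpl35a, -0.23 to 0.54 for Rps18, -0.41 to 0.061 for Rpl28 and -0.49 to 0.35 for Rpl15. With both livers numbered 2 left out, the change was 0.13 for Apoa4, 0.14 for Cyp3a11, 0.045 for Fth1, 0.17 for Ftl1, 0.016 for Eef1a1, 0.18 for Rps6, 0.34 for Tpt1, 0.24 for Alb, 0.28 for Rpl28 and 0.29 for Rpl15. With no replicate block, Apoa4 was at 0.035 and Cyp3a11 at 0.049. With the length offset, Tpt1 was at 0.018 and Scd1 at -0.074. Scd1 was at -0.011 with RLE size factors, -0.022 with no filter, -0.013 with the authors' total, -0.011 with DESeq2 and -5.93e-05 with limma-voom. For genes of at least 5 CPM in both kinds the median SE was 0.396, against 0.438 for all tested genes, which include them. The SE of the genes below that level was not taken separately.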
